A study of Mus musculus with 34 samples.

Results

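In the kidneys of *Pkd2*-KO mice, 339 genes lay away from the level of normal kidneys and further away in mice treated with the anti-miR-17 oligonucleotide RGLS4326. Of these, 333 were higher in PBS-treated *Pkd2*-KO kidneys than in normal kidneys and higher again after RGLS4326, and 6 were lower in both steps. Members were chosen from 14204 measured genes, those with a mean of at least 1 read per 1000000 reads counted in genes (CPM) over the 34 libraries, out of 23509 genes in the count tables. A gene was taken when the difference PBS minus UNT and the difference RGLS4326 minus PBS, both between group means of log2(CPM + 1), had the same sign and were each at least 0.3 in size. The 2 differences share the PBS libraries, and both were used to choose the members, so their values for the members are a description and carry no test.

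Kidney polyadenylated RNA was sequenced on postnatal day 28 (P28) from C57BL6 mice in 3 groups. UNT mice (n = 12) were non-transgenic, strain-matched and untreated. *Pkd2*-KO mice (written Pdk2KO in the sample labels) were injected subcutaneously with PBS (n = 11) or with RGLS4326 at 20 mg per kg (n = 11) on P10, P11, P12 and P19. In this model Cre under the *Pkhd1* promoter, active in kidney tubules, removes floxed *Pkd2*, so cells without Cre keep the gene, and both *Pkd2*-KO groups were injected. The study's text counts fewer PBS mice than the labels do, and all labelled libraries were used. *Pkd2* itself measured 199 to 272 CPM (median 241) in UNT, 103 to 231 CPM (median 176) in PBS and 174 to 259 CPM (median 240) in RGLS4326 libraries, and these ranges overlapped. The counts cover the whole gene and not the floxed exons alone, so they do not check the deletion.

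Autosomal dominant polycystic kidney disease follows loss of *Pkd1* or *Pkd2*, whose products, the polycystins, work together at the primary cilium of tubule cells. Tubules without them grow into fluid-filled cysts, and the surrounding interstitium gains fibroblasts, matrix and immune cells. miR-17 belongs to a microRNA family that is raised in cystic kidneys. A microRNA guides Argonaute proteins to messenger RNAs through its seed, the stretch from base 2 to base 8, and lowers their level, so an anti-miR is designed to raise its targets.

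The seed of mouse miR-17-5p and matches to it in members are shown because the drug is aimed at this pairing. The mature miRNA lies on chromosome 14 at 115043684 to 115043706 on the plus strand of GRCm38.p6 (RefSeq), and its seed is in capitals. The sites are the transcript-strand bases of annotated 3′ untranslated regions (UTRs), with an 8-base site in capitals. Its first 7 bases pair with the seed, and its last A lies opposite base 1 of the miRNA. They belong to *Pkd1*, polycystin 1, *Fat4*, an atypical cadherin of planar polarity, *Epha4*, an ephrin receptor, *Sema7a*, a membrane-anchored semaphorin, *Tnks2*, a tankyrase that acts on the Wnt pathway, and *Itga4*, an integrin of leukocytes.
mmu-miR-17-5p: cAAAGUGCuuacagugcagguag
Pkd1: gggcttctGCACTTTAaaaaggct
Fat4: tttgttccGCACTTTAaagctttc
Epha4: tcatccatGCACTTTAattgaaga
Sema7a: ttctcaatGCACTTTAataatgta
Tnks2: tgttctcaGCACTTTAacagatgc
Itga4: taaatatcGCACTTTAgctgatac

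The capitals lie at chr17:24595732-24595739 (plus strand) for *Pkd1*, chr3:39011391-39011398 (plus) for *Fat4*, chr1:77373677-77373684 (minus) for *Epha4*, chr9:57962819-57962826 (plus) for *Sema7a*, chr19:36890991-36890998 (plus) for *Tnks2* and chr2:79327747-79327754 (plus) for *Itga4*, all in GRCm38. A match is a description of the letters and does not show that miR-17 binds there.

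Libraries held 17603122 to 54981992 reads in genes, and no pair of libraries was identical. The tubular injury list, 15 genes of damaged tubules, had a mean log2(CPM + 1) of 4.03 to 4.59 in UNT, 7.82 to 8.58 in PBS and 7.19 to 8.15 in RGLS4326 libraries, and the 16 proximal tubule markers summed to at least 2822 CPM in every library. One library stood apart for this gene set. In PBS replicate 9 the mean log2(CPM + 1) of the 333 higher members was 3.31, inside the UNT range of 3.02 to 3.47, whereas the other PBS libraries measured 4.07 to 4.46 and the RGLS4326 libraries 4.32 to 4.83. PBS replicate 9 was the lowest PBS library for 274 of the 333 higher members, against 29.1% of all measured genes. It also had 4.86% of its counts in cytosolic ribosomal protein genes, against 2.26% to 3.33% in the other PBS and 1.30% to 1.91% in UNT libraries. Without this library the rule gave 199 genes, 196 higher and 3 lower, and 178 of the 333 were among them. Adrenal cortex markers summed to 921 and 1617 CPM in PBS replicates 2 and 11 and to at most 51.2 CPM in the other *Pkd2*-KO libraries. No adrenal marker was a member, and without each of them in turn the rule gave 351 and 330 genes. Without both it gave 346, 342 higher and 4 lower.

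Of the measured genes, 2.39% were members, 2.34% on the higher side and 0.0422% on the lower. Moving further from normal was the less common course. Among 7183 genes at least 0.3 higher in PBS than in UNT, 333 (4.64%) were at least 0.3 higher again after RGLS4326, 1111 (15.5%) were at least 0.3 lower, and 5739 differed by less. Among 3052 genes at least 0.3 lower in PBS, 6 (0.197%) were lower again and 1052 (34.5%) were higher. Members made up 18.6% of the 1788 genes that were at least 0.3 higher after treatment. The scale matters for the split between the sides: on raw CPM the median measured gene was 0.31 higher in PBS than in UNT, which is about the threshold, and RGLS4326 minus PBS had a median of 0.01. With TMM scaling, which sets the median PBS minus UNT difference at −0.01, the rule gave 213 higher and 15 lower genes, and with DESeq2 size factors 192 and 27. Of the 333 higher members, 209 and 192 were kept.

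**Figure D1:**
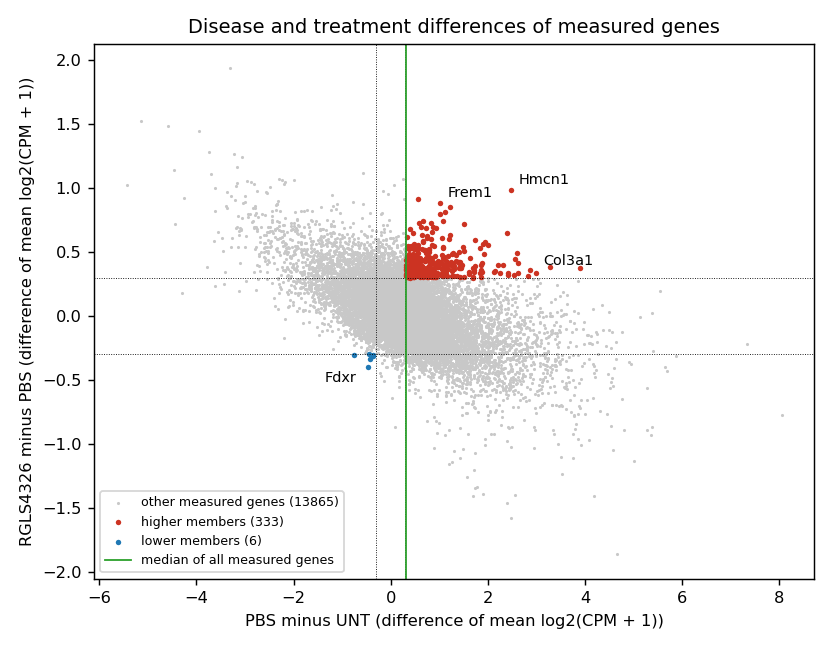
Difference PBS minus UNT (x axis) against RGLS4326 minus PBS (y axis), both between group means of log2(CPM + 1), for 14204 measured genes; dotted lines stand at 0.3 and −0.3 and the green line at the median gene (0.31). The 333 higher members fill the upper right corner and the 6 lower members the lower left.

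Within the higher members, PBS minus UNT ranged from 0.30 to 3.89 with a median of 0.74, against 0.31 over all measured genes. RGLS4326 minus PBS ranged from 0.30 to 0.99 with a median of 0.38, and the disease step was the larger in 285 of the 333 (85.6%), the same share as over all measured genes (85.6%). The treatment difference reached 0.5 in 58 genes. The nearest members inside the threshold were *Fbln1*, with a treatment difference of 0.30004, *Dbp* with −0.300222 and *Rad54b* with 0.300405. *Ndufb7* at −0.299694, *Adam5* at 0.299497 and *Prickle2* at 0.298091 lay just outside.

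All PBS libraries lay above all UNT libraries for 68 of the 333 higher members (34.9% of all measured genes), and all RGLS4326 libraries lay above all UNT libraries for 238 (34.9% of all measured genes). No member had every RGLS4326 library above every PBS library, with or without PBS replicate 9 (0.0141% of all measured genes in both cases). For 106 higher members all 11 treated mice were above the PBS median (6.5% of all measured genes), and for 287 at least 9 were (22.6% of all measured genes). Since the rule used these contrasts, the counts describe the members and test nothing.

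By the smaller of the 2 differences, the matrix genes *Hmcn1* and *Frem1* came first among the higher members. In bulk kidney, more cells of a type and more RNA per cell cannot be told apart. *Hmcn1*, hemicentin 1, a large fibulin-type matrix protein (chr1:150562524-150993435), measured 4.23 to 14.5 CPM (median 7.36) in UNT, 15 to 82.6 CPM (median 47.9) in PBS and 61.3 to 150.3 CPM (median 92.6) in RGLS4326 kidneys. Its log2 differences were 2.48 for disease and 0.99 for treatment. All 11 treated mice were above the PBS median, but the highest PBS kidneys overlapped the lowest treated ones, and without PBS replicate 9 the treatment difference was 0.83.

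*Frem1*, a basement membrane protein of the Fras1 complex (chr4:82897920-83052339), had a median of 22.9 CPM in UNT (19.7 to 34.2), 50.9 in PBS (22 to 78.4) and 97.2 in RGLS4326 kidneys (66.9 to 120.4). PBS replicate 9 was the only PBS kidney within the UNT range, and the treatment difference was 0.89 with it and 0.77 without it. *Abi3bp*, a matrix-binding protein, reached 40.0 to 67.0 CPM in treated mice against 14 to 40.3 in PBS and 7.83 to 16.6 in UNT mice, so that treated and PBS mice met only at the edge. *Cdh11*, the cadherin of mesenchymal cells, went from a median of 15.2 CPM in UNT to 88.3 in PBS and 127 in RGLS4326 mice.

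*Col3a1*, the type III collagen chain of the interstitium, measured 145 to 500 CPM (median 210) in UNT, 1161 to 2882 CPM (median 1883) in PBS and 1902 to 2900 CPM (median 2501) in treated kidneys. Its disease difference of 2.98 was far larger than its treatment difference of 0.34, and the highest PBS kidney nearly equalled the highest treated one. *Fbln5*, fibulin 5 of elastic fibers, differed by about as much in both steps, 0.54 and 0.51, with 113 to 243 CPM in UNT, 185 to 392 in PBS and 336 to 425 in treated mice. On TMM scaling its disease difference was 0.20, under the threshold, while the treatment difference stayed at 0.52.

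*Col15a1*, a basement membrane collagen, and *F2r*, the thrombin receptor, were also among the 6 higher members with the highest mean CPM. *Col15a1* measured 41.5 to 123 CPM in UNT, 215 to 579 in PBS and 398 to 661 in treated mice. *F2r* measured 49.1 to 93.2, 191 to 410 and 307 to 509 CPM, and its treatment difference of 0.35 was 0.29 without PBS replicate 9.

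Others of the first 15 by the smaller difference came from no list. *Nav3*, a microtubule-binding protein of migrating cells, had medians of 3.60, 12.1 and 19.8 CPM in UNT, PBS and treated mice, and its treatment difference of 0.85 was 0.65 without PBS replicate 9, the lowest PBS library at 1.88 CPM. *Gria4*, a glutamate receptor subunit, measured 4.94 to 8.07 CPM in UNT, 6.44 to 14.3 in PBS and 11.5 to 27.1 in treated mice. *Alx1*, a homeobox factor of mesenchyme, had medians of 5.73, 11.0 and 18.3 CPM. *Zbed6*, a transcriptional repressor, had a treatment difference of 0.73, or 0.43 without PBS replicate 9, where it measured 3.41 CPM against 27.7 or more in the other PBS mice. Its exons overlap those of *Zc3h11a* on the same strand, so its counts are uncertain.

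The list of fibroblast and matrix genes had 18 measured genes. All 18 were at least 0.3 higher in disease, 5 were members (*Col3a1*, *Col6a3*, *Postn*, *Tnc* and *Pdgfra*), and none was at least 0.3 lower after RGLS4326. Without PBS replicate 9 only 2 of the 5, *Col6a3* and *Pdgfra*, stayed members, with *Col3a1* at 0.27, *Postn* at 0.26 and *Tnc* at 0.24 in the treatment difference. The median treatment difference of the list was 0.17, against 0.01 for all genes. *Pdgfra*, the receptor of interstitial fibroblasts, had medians of 86.1, 134 and 191 CPM in UNT, PBS and RGLS4326 mice, and its disease difference of 0.56 was 0.23 on TMM scaling. Families collected by symbol after the members were known gave wider sets. Members included 6 of 36 measured collagen chains, 5 of 20 ADAMTS proteases and ADAMTS-like proteins and 5 of 11 fibulins, hemicentins and related proteins. Of the same families 1, 1 and 2 genes were at least 0.3 lower after treatment, and the family medians of the treatment difference were 0.18, 0.18 and −0.06. Without PBS replicate 9, 3 of the 6 collagen members, 2 of the 5 ADAMTS members and 3 of the 5 fibulin family members stayed members. In the metalloprotease list *Adamts4*, *Adamts12* and *Adam12* were members, while 8 of its 22 measured genes were at least 0.3 lower after treatment. *Adamts17* measured 4.74 to 8.55 CPM in treated, 1.94 to 5.53 in PBS and 0.546 to 2.98 in UNT mice, and its treatment difference of 0.69 moved little without PBS replicate 9 (0.67).

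**Figure D2:**
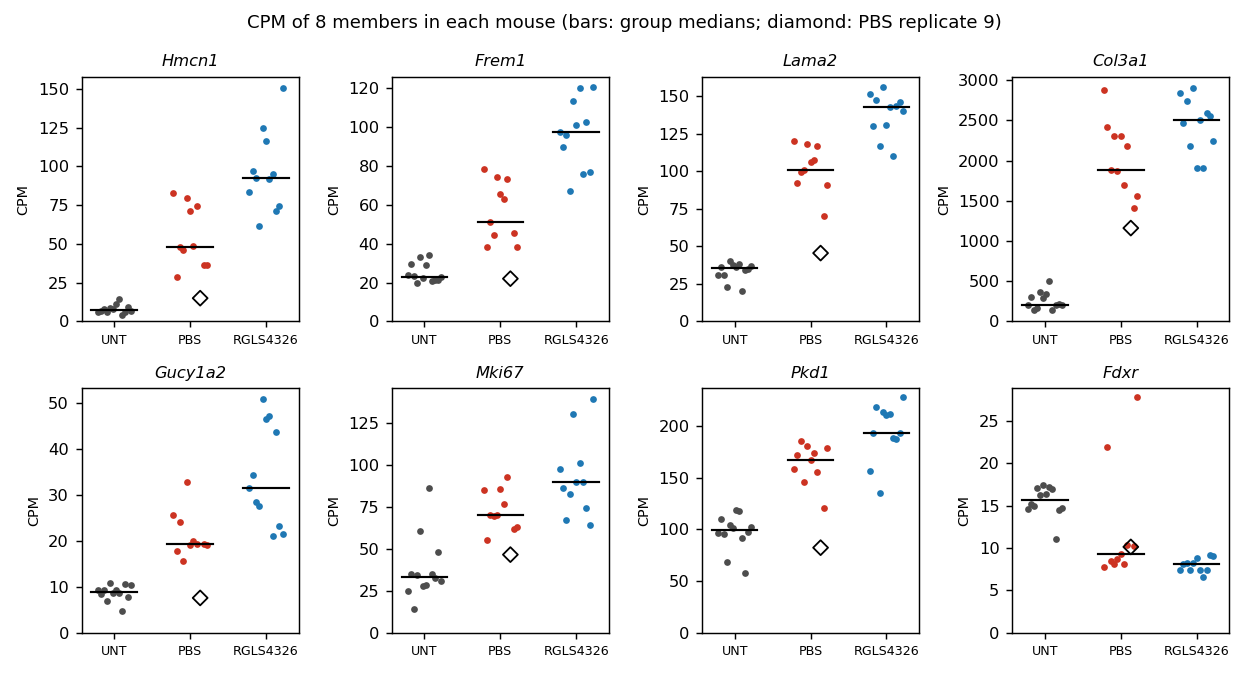
CPM of 8 members in each of the 34 mice; bars are group medians and the diamond is PBS replicate 9. Treated mice sit above the PBS median for *Hmcn1*, *Frem1*, *Lama2*, *Col3a1* and *Gucy1a2*, the PBS and treated ranges overlap in every panel, and *Fdxr* is the one member shown that is lower.

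*Hgf* and *Erbb4* were the only members among 33 measured growth factors and receptors, a list with a median treatment difference of 0.03. *Hgf*, hepatocyte growth factor, a mesenchymal ligand of the Met receptor on tubule cells, measured 1.24 to 3.28 CPM (median 1.94) in UNT, 1.91 to 12.1 CPM (median 7.91) in PBS and 6.52 to 19.8 CPM (median 12.6) in treated mice. Its treatment difference was 0.72, or 0.56 without PBS replicate 9. *Erbb4*, a receptor of the EGF family, was 2.42 higher in disease, but its treatment difference of 0.33 fell to 0.11 without PBS replicate 9, in which it measured 1.85 CPM against 8.73 or more in the other PBS mice.

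*C7*, a component of the membrane attack complex of complement, measured 3.32 to 5.87 CPM (median 4.42) in UNT, 11.2 to 25.8 CPM (median 22.4) in PBS and 19.2 to 46.5 CPM (median 33.5) in treated mice. It was clear of the UNT range in every PBS mouse, PBS replicate 9 included. Of 12 measured complement genes, 3 were at least 0.3 lower after treatment, and the median treatment difference of the list was −0.09. *Hhip*, an inhibitor of Hedgehog ligands, was the only member among 12 measured genes of that pathway, with a treatment difference of 0.52. Its disease difference of 0.37 was 0.11 with TMM scaling, so it was then no member.

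Cell division genes formed another set. Members included 7 of 20 measured cell cycle genes, *Mki67*, *Top2a*, *Ccna2*, *Bub1*, *Cenpe*, *Cenpf* and *Kif11*. None of the 20 was at least 0.3 lower after treatment, and 19 were at least 0.3 higher in disease. The median treatment difference of the list was 0.16. By staining, the study found fewer proliferating cyst epithelial cells after RGLS4326 in this model. The counts here are RNA of the whole kidney and do not tell which cells divide. *Mki67*, the marker of cycling cells, measured 14.3 to 86.3 CPM (median 33.5) in UNT, 46.7 to 92.7 CPM (median 70.4) in PBS and 64.3 to 139.6 CPM (median 90.1) in treated kidneys, so the highest UNT kidneys lay within the PBS range. Among families collected after the values were seen, 14 of 36 measured condensin, shugoshin and centromere genes and 5 of 33 kinesins were members. So were 6 of 22 DNA repair and Fanconi genes, among them *Polq*, the polymerase of theta-mediated end joining. Without PBS replicate 9, all 7 cell cycle members, 13 of the 14 condensin and centromere members, 3 of the 5 kinesins and 2 of the 6 DNA repair members were still taken by the rule, and with TMM scaling 7, 12, 3 and 2. With group means adjusted for the share of reads in no gene, 2, 3, 0 and 1 of them had a treatment difference of at least 0.3. *Polq* was also the only member of the 18 genes in the miR-17 signature of the study, a list that was chosen in cultured mouse cells, and its medians were 2.06, 3.28 and 5.50 CPM in UNT, PBS and RGLS4326 mice.

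Genes of nitric oxide and cyclic GMP signalling, which relaxes smooth muscle and pericytes, were a further set, picked out after their values were seen. Of 11 measured genes 5 were members. They were *Gucy1a2*, *Gucy1a3* and *Gucy1b3*, subunits of soluble guanylate cyclase, *Prkg1*, the cGMP-dependent kinase, and *Pde3a*, a phosphodiesterase. *Gucy1a2* measured 4.84 to 10.8 CPM in UNT, 7.59 to 32.8 in PBS and 21 to 50.8 in treated mice, with medians of 8.93, 19.3 and 31.5. *Pde3a* measured 20.0 to 28.8 CPM in treated mice and 3.89 to 23.3 in PBS mice. All 5 were still members without PBS replicate 9, and with TMM scaling 4 were, without *Gucy1b3*. With group means adjusted for the share of reads in no gene, 2 of the 5 had a treatment difference of at least 0.3. No gene of the list of mesangial, pericyte and smooth muscle markers (11 measured) was a member, although 7 of them were at least 0.3 higher in disease.

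Some guidance receptors known from axons and vessels were members. *Epha3*, an ephrin receptor, measured 0.793 to 2.17 CPM in UNT, 1.08 to 6.27 in PBS and 5.06 to 11.5 in treated mice. *Epha4*, with the site printed above, had medians of 11.6, 17.9 and 25 CPM. By family, 2 of 18 Eph receptors and ephrins, 5 of 30 semaphorins, plexins and neuropilins, and 5 of 45 protocadherin, Fat and Dachsous genes were members. Of the Eph receptors and ephrins 4 were at least 0.3 lower after treatment, more than were raised, and the family median was −0.14. The other family medians were 0.13, with 2 genes at least 0.3 lower, and 0.15, with none. Without PBS replicate 9, 3 of the 5 semaphorin family members and 2 of the 5 protocadherin family members stayed members. *Fat4* measured 6.75 to 16.1 CPM in UNT, 7.30 to 29.3 in PBS and 22 to 34.4 in treated mice.

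*Pkd1* was the only member of 23 measured genes of cilia and polycystic disease. It measured 58.0 to 119 CPM (median 99.6) in UNT, 82.2 to 186 CPM (median 167) in PBS and 135 to 227 CPM (median 193) in treated kidneys. Every PBS kidney but PBS replicate 9 was above the highest UNT kidney, and the PBS and treated ranges overlapped widely. The treatment difference of 0.33 was 0.24 without that library, so *Pkd1* was then no member. With group means adjusted for the share of reads in no gene it was 0.15. Its exons overlap those of *Tsc2* on the other strand, and the strand setting of the counting is not given in the sources used here. Of the 4 Argonaute genes *Ago2* and *Ago3* were members, a set picked after its values were seen. *Ago2*, the slicing Argonaute, had medians of 35.9, 55.9 and 73.7 CPM, and its treatment difference of 0.52 was 0.31 without PBS replicate 9, where it measured 10.8 CPM. With the same adjustment the treatment difference was 0.34 for *Ago2* and 0.19 in place of 0.52 for *Ago3*. The disease difference of *Ago2*, 0.47, was 0.14 with TMM scaling, under the threshold.

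Some genes of tubules were members. *Slc13a1*, the sodium-sulfate cotransporter of the proximal tubule, had medians of 224, 295 and 453 CPM in UNT, PBS and treated mice. None of the 16 proximal tubule markers was a member: none was at least 0.3 higher in disease, and 14 were at least 0.3 higher after RGLS4326. *Cftr*, the chloride channel of cyst fluid secretion, had medians of 7.4, 15.6 and 18.7 CPM. *Cyp24a1*, which inactivates vitamin D, varied from 3.64 to 96.7 CPM among UNT mice alone, and its group medians after treatment and under PBS (32.9 and 33.8) ran against its means. Macrophage, MHC class II, interferon and tubular injury lists held no member, and 11 of 15 macrophage genes were at least 0.3 higher in disease and at least 0.3 lower after treatment. *Fpr1*, a formyl peptide receptor of phagocytes, was a member and measured 0 to 0.0678 CPM in UNT, 0.412 to 1.82 in PBS and 1.29 to 4.47 in treated mice. In all, 12 of the 47 lists held a member.

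The 6 lower members were *Fdxr*, *Ecm1*, *Atp5e*, *Ndufa3*, *Cisd3* and *Dbp*. *Atp5e* and *Ndufa3* are subunits of ATP synthase and complex I, and *Fdxr* and *Cisd3* are mitochondrial proteins of electron transfer and iron-sulfur binding. *Fdxr* measured 11.1 to 17.4 CPM (median 15.7) in UNT, 7.72 to 27.8 CPM (median 9.26) in PBS and 6.64 to 9.22 CPM (median 8.11) in treated mice. The PBS mice above all UNT mice were PBS replicates 2 and 11, at 21.9 and 27.8 CPM, the libraries with adrenal cortex markers, and *Fdxr* serves steroid synthesis in the adrenal gland. Without both its treatment difference of −0.40 was −0.15, and that of *Ecm1* was −0.25 in place of −0.34, so neither was then a member. *Atp5e* measured 128 to 200 CPM in UNT, 98.5 to 288 in PBS and 88.2 to 129 in treated mice, and its highest PBS value was PBS replicate 9. Without that library its treatment difference of −0.31 became −0.20. *Dbp*, a transcription factor with a daily rhythm, ranged from 42.6 to 226 CPM within UNT, and its treatment difference was 0.47 in numbering block 1, −0.25 in block 2 and −0.95 in block 3.

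Of 81 higher members described here, 22 were not taken by the rule without PBS replicate 9, 20 with TMM scaling and 23 with DESeq2 size factors. For the first 22 the treatment difference was then 0.11 or more and under 0.3. Beside those given above they were *Adamts4*, *Fbln1*, *Rad54b*, *Cftr*, *Cyp24a1*, *Dpysl3*, *Pcdhgc3*, *Trim59*, *Hoxd11*, *Tnks2*, *Stil*, *Dtl*, *Fzd3* and the factors *Myocd*, *Prrx1* and *Zeb1*. With TMM scaling the disease difference was under 0.3 for *Epha4*, *Polq*, *Rad54b*, *Slc13a1*, *Cyp24a1*, *Mastl*, *Prkab2*, *Kcnt2*, *Edn3*, *Cpne7*, *Tnks2*, *Ebf1*, *Erg* and *Zeb1*, beside *Fbln5*, *Pdgfra*, *Gucy1b3*, *Hhip* and *Ago2*, and *Fpr1* had a mean CPM under 1. DESeq2 size factors added *Fzd3*, *Sema7a* and *Fbln1*, whose treatment differences were then 0.29.

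The library numbers restart in the deposited names, which splits the 34 libraries into 3 numbering blocks that each hold all 3 groups. What a block stands for is not stated. Of the higher members, 307 (92.2%) were higher after RGLS4326 in all 3 blocks, against 29% of all measured genes. The size was not even: the median treatment difference was 0.19 in block 1, 0.46 in block 2 and 0.55 in block 3, the block of PBS replicate 9, against −0.04, 0.02 and 0.02 for all measured genes. The rule chose the members on the mean over these same blocks, so these shares and medians describe them and test nothing. A test of the treatment effect by block, which the rule did not use, called no gene at an adjusted p under 0.05 (0% of 15831 genes, edgeR's quasi-likelihood test with Benjamini-Hochberg adjustment). Of all genes 817, and of the higher members 8, had an unadjusted p under 0.05, and DESeq2's likelihood ratio test also called none, with 1023 and 11. *Adamts4* came first among members (adjusted p = 0.879), with treatment differences of −0.40, 0.37 and 0.87 in the 3 blocks.

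The members differed in how they followed the share of reads that fell in no gene, a property of the library. This share was 9.84% to 11.3% in UNT, 5.18% to 9% in PBS and 4.94% to 12.0% in RGLS4326 libraries. The slope of a gene on this share among the mice of 1 group is a measure that the rule did not use, although it rests on the same libraries as the group means, and the test was added after the data were seen. Among the 11 RGLS4326 mice, 134 of the 333 higher members rose with the share and 3 fell, against 21.5% and 19.5% of 15487 genes, 41% in all (edgeR's quasi-likelihood test, Benjamini-Hochberg adjusted p under 0.05). With the numbering block in the fit, 49 higher members (14.7%) rose and none fell, against 11% and 7.81% of 15657 genes. Without the 2 mice farthest from the median, RGLS4326 replicates 4 and 7, 77 (23.1%) rose and 2 fell, against 15.1% and 11.7% of 15389 genes. *Hoxd11*, a patterning factor of the kidney, came first, with a slope of 0.16 on the log2 scale per percentage point (adjusted p = 9.9e-06), and then *Prkab2* (0.14, adjusted p = 1.5e-05), a subunit of the AMP-activated kinase. *Kcnt2*, a sodium-activated potassium channel (0.23, adjusted p = 3.6e-05), and *Nfkbiz*, an inhibitor of NF-kB proteins (0.28, adjusted p = 3.7e-05), had steeper slopes, and *Trim59* was the fifth. The 3 that fell were *Sema7a*, *Erg* and *Pcdhgc3*.

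Among PBS mice 2 higher members rose, *Nfkbiz* (0.34, adjusted p = 0.0412) and *F830016B08Rik* (0.64, adjusted p = 0.0492), against 0.899% of 15692 genes that rose and 1.04% called in all, and 10 (3%) did so without PBS replicate 9, against 2.03% of 15722 genes. With the numbering block in the fit, none did. Among UNT mice edgeR called no gene (1615 genes and 87 higher members had an unadjusted p under 0.05), and DESeq2 called 87 genes and 16 higher members. Members had positive slopes in 77.6% (UNT), 90.7% (PBS) and 80.8% (RGLS4326) of cases, against 48.4%, 49.2% and 48.1% of all measured genes. PBS replicate 9, the lowest PBS library for most members, had 5.67% of its reads in no gene, near the bottom of the PBS range. Without it 73.9% of members had a positive slope among PBS mice, and their median slope was 0.05 in place of 0.11. Without the 2 PBS mice farthest from the median, PBS replicates 1 and 5, the values were 97.9% and 0.21. Among UNT mice, without the 2 farthest from the median, UNT replicates 4 and 9, 45.3% of members had a positive slope, and their median slope was −0.03 in place of 0.20.

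By group, 13 of the 14 condensin and centromere members, 6 of 6 DNA repair members and 5 of the 7 members of the cell cycle list rose with the share in treated mice, against 21.5% of all genes. With the numbering block in the fit, 6, 1 and 2 of them did, against 11% of all genes. *Bub1*, *Cenpe* and *Cenpf* count in both the condensin and centromere family and the cell cycle list. None of the 5 fibroblast and matrix members, none of the 5 ADAMTS family members and 1 of the 6 collagen members passed the test, whereas 2 of the 5 fibulin and hemicentin family members rose, also with the numbering block in the fit. The difference between these groups was not tested. The slope of *Col3a1* was −0.01 (adjusted p = 0.791) and that of *Mki67* 0.10 (adjusted p = 0.0161). When group means were adjusted for the share in a linear model, the treatment difference of *Col3a1* was 0.31 in place of 0.34 and that of *Mki67* 0.20 in place of 0.38. Over all higher members the adjusted treatment difference had a median of 0.25. It was above 0 in 330 of them and at least 0.3 in 114, against 42.8% and 4.79% of all measured genes, whose median was −0.03. The rule had chosen the members on the treatment difference in these same libraries, so this comparison describes them and tests nothing. The part of the share in the treatment differences was otherwise not tested.

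**Figure D3:**
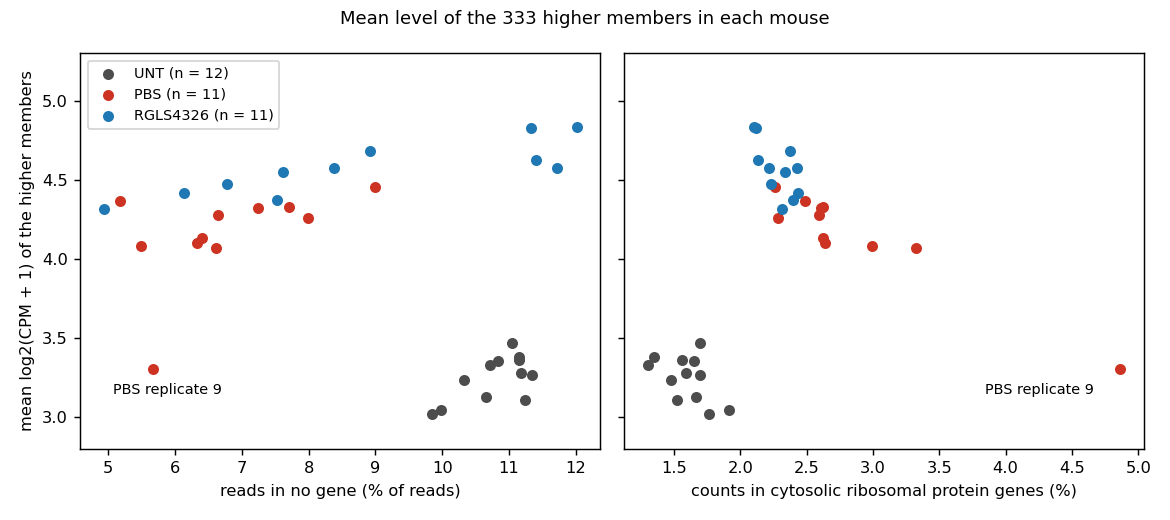
Mean log2(CPM + 1) of the 333 higher members in each mouse against the share of reads in no gene (left, % of reads) and the share of counts in cytosolic ribosomal protein genes (right, %). Treated mice (4.32 to 4.83) lie above most PBS mice (4.07 to 4.46 without replicate 9), and PBS replicate 9 stands alone at 3.31 with 4.86% of its counts in ribosomal protein genes. The order of the 3 groups follows from the rule that chose the members.

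**Figure D4:**
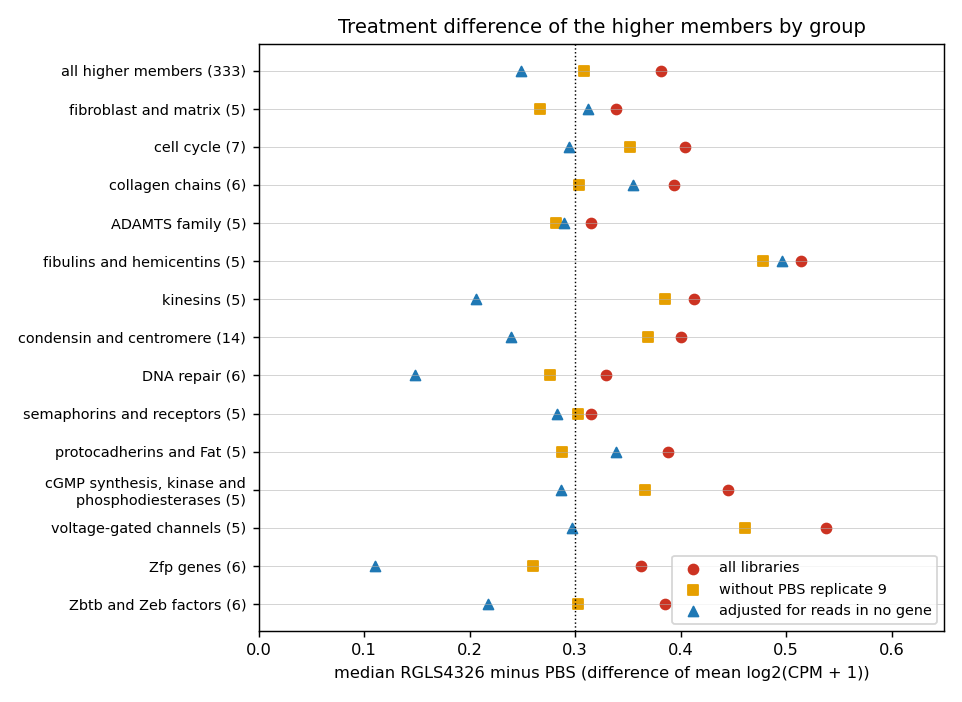
Median treatment difference (log2(CPM + 1), x axis) of the higher members by list or family, with the number of members in parentheses, for all libraries (circles), without PBS replicate 9 (squares) and adjusted for the share of reads in no gene (triangles); the dotted line is the threshold of 0.3. For the 14 condensin and centromere members the median is 0.40, 0.37 and 0.24, and for the 6 collagen members 0.39, 0.30 and 0.35.

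The degree of injury in a kidney was another measure that the rule did not use, again in the same libraries. Among PBS mice the slope on the tubular injury index, in log2 units per unit of the index, had a median of −0.28 over the higher members and 0.01 over all measured genes. edgeR called 1160 genes (7.45% of 15561, with 2.87% rising and 4.58% falling). Among members it called *Edn3*, endothelin 3, which fell with the index (−0.74, adjusted p = 0.0286), and the lower member *Ecm1*, a secreted matrix protein, which rose (0.89, adjusted p = 0.0452). Without PBS replicate 9, 6 higher members (1.80%) fell and none rose, against 7.28% and 5.18% of 15722 genes, so the share of members called was under that of all genes. Among treated mice 3 higher members passed the test, against 1.23% of 15657 genes (0.996% rising and 0.23% falling). *Dpysl3*, a cytoskeletal protein of growing cells, rose with the index (0.85, adjusted p = 0.0217). *Cpne7*, a calcium-dependent membrane-binding protein, and *Hhip* fell (−1.95, adjusted p = 0.0172, and −1.27, adjusted p = 0.0356). No gene passed without the 2 mice farthest from the median, RGLS4326 replicates 6 and 11 (DESeq2 was not run on that subset; 400 genes and 5 higher members had an unadjusted p under 0.05).

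The members were long genes with long 3′ UTRs. In the GENCODE M21 annotation, which matched 332 of the 333 higher members, their median gene span was 75208 bases, against 24235 for all measured genes, and their median 3′ UTR 2435 bases, against 1184. GC content of the transcript had a median of 44.5% against 50.2%. The 6 lower members had short genes (median span 4075 bases), short 3′ UTRs (median 205 bases) and 56.4% GC. These properties were shared in part by the 1455 other genes that were at least 0.3 higher after treatment, with a median span of 37833 bases, a median 3′ UTR of 1847 bases and 44.0% GC.

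A match to the miR-17 seed was searched in the longest annotated 3′ UTR as GCACTTT or CACTTTA on the transcript strand, which overlap in the 8-base GCACTTTA. The first pairs with the whole seed, and the second with its first 6 bases, with an A opposite base 1. Of 330 higher members with a 3′ UTR, 130 (39.4%) held a match, against 21.7% of 13697 measured genes and 32.8% of the 1342 other genes higher after treatment. The 8-base form was present in 39 (11.8%), against 4.39% of measured genes, and no lower member held a match. The share rises with the length of the 3′ UTR in all sets. Genes were divided into 4 equal bins by length. In the longest bin, over 2288 bases, 48.6% of 177 higher members, 51.8% of 544 other genes higher after treatment and 46.8% of all genes held a match. Between 1184 and 2288 bases the values were 44.6% of 74, 31.6% of 351 and 23.9%. Between 514 and 1184 bases they were 18.2% of 55, 15.1% of 239 and 12.3%, and in the shortest bin, up to 514 bases, 4.17% of 24, 5.29% of 208 and 3.76%. For the 8-base form, from the longest bin to the shortest, the shares were 16.9%, 6.76%, 7.27% and 0% of higher members, 11.9%, 6.55%, 2.93% and 0.481% of the other genes higher after treatment and 10.3%, 4.44%, 2.31% and 0.496% of all genes.

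**Figure D5:**
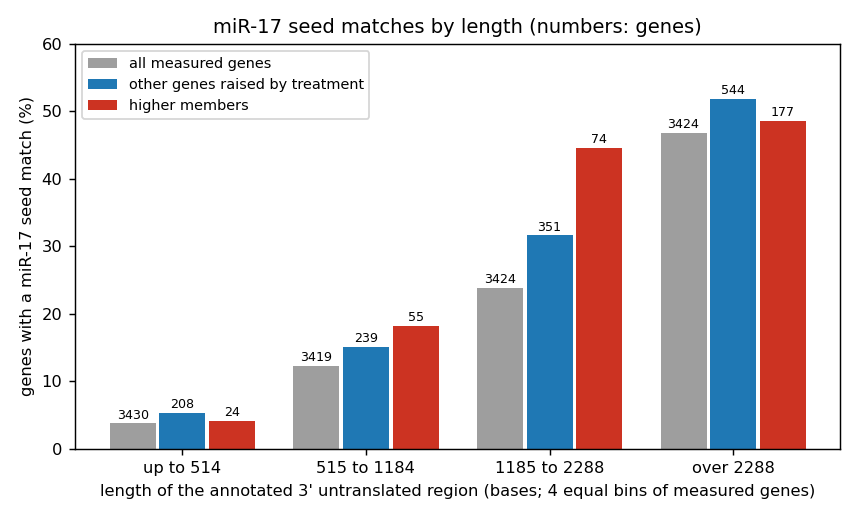
Share of genes with a miR-17 seed match (y axis, %) by bin of 3′ UTR length (x axis, bases) for all measured genes, other genes higher after treatment and higher members; the number over each bar is the number of genes. Either 7-base form counts as a match. Bars of the 3 sets lie close together in the shortest and longest bins, and the higher members stand at 44.6% against 23.9% between 1184 and 2288 bases.

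Of the 15 higher members that led by the smaller difference, 1 held a match (*Lphn3*, an adhesion receptor) and none the 8-base form; their median 3′ UTR was 1919 bases. Members with the 8-base match covered several of the groups above. Besides the 6 whose sites are printed, they included *Fzd3*, a Wnt receptor, the mitotic genes *Stil*, *Cep55* and *Mastl*, *Dtl*, a ubiquitin ligase subunit that acts in DNA replication, the amino acid transporter *Slc7a2*, and *Xrn1*, a nuclease that degrades messenger RNA. *Ptpn4*, a tyrosine phosphatase, held 2 sites. The *Pkd1* site starts at base 193 of a 3′ UTR of 969 bases and the *Epha4* site at base 49 of 3310.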

How the data were processed

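Per the labels, kidney polyA RNA was made into TruSeq Stranded mRNA libraries. The submitters' processing notes name FastQC 0.11.2, Trim Galore, STAR, SAMtools 1.1, HTSeq 0.6.1 and Picard 1.119 with GRCm38 (mm10). The authors deposited raw counts per gene, 1 file per mouse. The annotation and strand setting are not given in the sources used here. The labels number the samples of each group, and treating them as separate mice rests on the study's description, which counts fewer PBS mice than the labels.

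CPM was computed over gene rows alone, and 5 summary rows of reads not assigned to genes stayed out of library sizes. Group means of log2(CPM + 1) gave the members. Slopes and the treatment effect by numbering block were tested across all genes with edgeR 4.0.16 (quasi-likelihood, TMM, filterByExpr, Benjamini-Hochberg) in R 4.3.3, with DESeq2 1.42.0 as an alternative. On simulated counts the tests recovered 195 of 200 changed genes for the effect by block, 168 and 186 for the injury slopes in PBS and RGLS4326 mice and 198 for the slope on reads in no gene in RGLS4326 mice. The planted log2 change was 2 in treated mice of 1 block. Planted slopes were 2 per unit of the injury index and 0.3 per percentage point, with the same spread for all genes. The median slopes of the higher members were smaller in size (−0.28, −0.05 and 0.05). Recovery at those sizes was not checked. Genes were matched to GENCODE M21 (GRCm38), 14100 of 14204 measured genes by symbol or RefSeq synonym.

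The members, lists and families were chosen with earlier results of these data known. Members were named from the first 15 of each direction by the smaller difference, the 6 of each direction with the highest mean CPM, those in a list, those with an 8-base miR-17 match, those nearest the threshold and the first 5 by p in each test; not all of these are named, and others were chosen after their values were seen. CPM is not corrected for length, so levels are compared within a gene. Exons of 112 higher and 3 lower members overlap those of another annotated gene, and their counts are uncertain. Some members are not reported here.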

Additional observations from a re-analysis of the deposited data

How the results depend on the processing

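How many genes the rule took depended on the libraries and the scale. Against 339 genes (333 higher, 6 lower), it gave 219 with DESeq2 size factors (192 and 27), 228 with TMM scaling (213 and 15), 46 at a threshold of 0.5 (46 and 0), 550 without numbering block 1 (516 and 34), 220 without block 3 (217 and 3), and 163 with group means adjusted for reads in no gene (156 and 7). With that adjustment on the treatment difference alone, chosen after seeing the data, it gave 159 (127 and 32). The lower side had 12 genes with a pseudocount of 0.5, with group medians and without block 2, and 21 with a pseudocount of 0.1. Leaving out each library in turn gave 199 to 395 genes, 196 to 386 higher and 3 to 12 lower; the 199 came without PBS replicate 9, and the next lowest was 266. The lower side, at 6, moved by more than 1.5 times without RGLS4326 replicate 3 (10), without PBS replicates 1, 4 and 5 (11), 2 (12) and 7 (10), and without PBS replicates 9 and 11 (3). TMM scaling turned the disease difference of 8 higher members below 0. Without both PBS libraries with adrenal markers, also chosen after seeing the data, it gave 346 (342 and 4). Of 3916 recomputed treatment differences of 89 members, all those named among them, 4 reversed: *Dbp* at 0.07269 and *Adamts4* at −0.000263 without block 3, *Cyp24a1* at −0.03886 with group medians, and *Nfkbiz* at −0.2498 after adjustment for reads in no gene. The cause was not tested. Over all genes, the treatment contrast called 5280, and 89 with reads in no gene as a covariate, a term that itself differed between the groups.

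Counts of the 333 higher members called are given with the share of all genes called in the same fit. For the injury slope among PBS mice (1, against 7.45%) they were 2 with the proximal tubule index (8.39%) and with reads in no gene in the fit (5.92%), 8 with the numbering block (9.91%), 6 without the 2 farthest mice (4.59%) and without PBS replicate 9 (12.5%), and 10 with DESeq2 (10.2%). Among treated mice (3, against 1.23%) they were 0 with the proximal tubule index (0.150%) and without the 2 farthest mice (0%), 19 with the share as covariate (3.10%) and 11 with DESeq2 (4.16%). Of the 3, 1 rose and 2 fell. With the share as covariate 18 rose and 1 fell, against 1.66% and 1.44% of all genes. The direction among treated mice thus depended on this covariate. For the slope on the share among PBS mice (2, against 1.04%) they were 1 with no filter (0.578%), 0 with the numbering block (0%), with the injury index (0.274%) and without the 2 farthest mice (0%), 10 without PBS replicate 9 (2.86%) and 22 with DESeq2 (7.72%). Among UNT mice (0, against 0%) they were 16 with DESeq2 (0.447%), and among treated mice (137, against 41%) 49 with the numbering block (18.8%) and 79 without the 2 farthest mice (26.8%).

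Same-numbered mice did not deviate together: 5 of 11 pairs of PBS and RGLS4326, 1 of 11 of PBS and UNT and 3 of 11 of RGLS4326 and UNT had a correlation over 0.1, so the numbers do not pair the samples. With the replicate block the treatment contrast called 5031 genes and the disease contrast 13465, against 5280 and 12841.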

Other observations

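Among genes chosen after their values were seen, some transcription factors known from mesenchymal and vascular cells were members, although none of 14 endothelial markers and none of 11 mesangial, pericyte and smooth muscle markers was. *Zeb2*, a repressor of epithelial genes, measured 30.4 to 53.6 CPM (median 42.5) in UNT, 44.0 to 115 CPM (median 90.5) in PBS and 97.8 to 179 CPM (median 121) in treated mice. *Ebf1* measured 6.83 to 9.33 CPM in treated mice, 2.17 to 7.70 in PBS mice and 2.58 to 6.75 in UNT mice. *Prrx1*, *Fli1*, *Erg* and *Myocd*, the coactivator of smooth muscle genes, had treatment differences of 0.31, 0.32, 0.32 and 0.38. For *Myocd* the value was 0.23 without PBS replicate 9. *Zeb1* had a disease difference of 0.32 that was −0.01 with TMM scaling, and those of *Ebf1* and *Erg*, 0.34 and 0.43, were 0.06 and 0.11, so the place of these 3 on the list depends on the scale.

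*Gpr34* and *P2ry12*, receptors known from myeloid cells and chosen after their values were seen, were members, whereas none of the 15 measured macrophage markers was and 11 of those were at least 0.3 lower after treatment. *Gpr34* had medians of 0.393, 4.21 and 6.39 CPM in UNT, PBS and treated mice and *P2ry12* medians of 0.236, 3.23 and 4.78 CPM. Their treatment differences of 0.48 and 0.34 were 0.48 and 0.31 without PBS replicate 9. The median treatment difference of the 15 measured macrophage markers was −0.45.

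*Mir17hg*, the host transcript of miR-17 and no member, measured 6.48 to 10.5 CPM in UNT, 1.16 to 4.30 in PBS and 0.739 to 15.9 in RGLS4326 libraries. The 4 treated libraries with 11.3% or more of their reads in no gene held 9.61 to 15.9 CPM, and the other 7 held 0.739 to 5.60 CPM.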
